A study of Homo sapiens with 8 samples.

Results

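The annexins and their S100 partners are described here as 10 genes: the annexins ANXA1, ANXA2, ANXA3, ANXA4, ANXA5, ANXA6 and ANXA11, and the S100 genes S100A6, S100A10 and S100A11. They are 10 of the 20344 genes that were listed in either of 2 expression tables, and each of the 10 was listed and tested in both tables. The members were chosen by gene symbol with results of these data known, since ANXA1 had the largest fall after crowding. The crowding values of the members are therefore a description without a test. The stated rule did not use the ETV4 knockdown. Genes that fell after crowding rose there more often than all genes did, as given below, so that comparison is not fully independent of the choice.

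Poly-A RNA of H9 cells, an established human embryonic stem cell (hESC) line kept on Matrigel in mTeSR1 or TeSR-E8 medium, was sequenced in 8 libraries of 2 experiments. In the crowding experiment, 2 libraries labelled small came from low-density cultures and 2 labelled crowded came from high-density cultures, in which drops of Matrigel limited the area for attachment. In the knockdown experiment, 2 libraries labelled Ctrl carried a control short hairpin RNA and 2 labelled ETV4 KD carried a hairpin against the ETS factor ETV4, both delivered by lentivirus. Which ETV4 hairpin these libraries carried was not given in the sources used here. H9 is a single cell line, and the labels do not say whether replicate libraries came from separate cultures, so the spread between them may be technical. In the text, a level is given in FPKM (fragments normalized to transcript length and to the mapped fragments of the library), and a gene was called when its adjusted p in edgeR's quasi-likelihood test was below 0.05 and its log2 fold change was over 0.5 in size. SE is the standard error of a log2 fold change. The 2 tables were normalized separately, so levels were compared only within an experiment.

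Annexins are proteins that bind acidic phospholipids of membranes when calcium rises, and they serve in membrane repair, vesicle transport and the link between membranes and actin. S100 proteins are small calcium-binding proteins that form dimers, and several of them dock on the amino-terminal tail of a particular annexin. S100A10 joins ANXA2 in a tetramer that binds plasminogen and its activators at the cell surface, and S100A11 binds ANXA1. S100A6 binds several annexins, among them ANXA2 and ANXA11.

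The RefSeq bases just before the start sites of ANXA1, ANXA2 and S100A10 are printed because ANXA1 led the list in both experiments and because ANXA2 and S100A10 encode the parts of 1 complex. Each stretch is the 150 bases upstream of the start in GRCh38.p14, written 5′ to 3′ on the gene's strand: ANXA1 at chr9:73151715-73151864 on the plus strand, ANXA2 at chr15:60397987-60398136 on the minus strand and S100A10 at chr1:151993860-151994009 on the minus strand. Capitals mark matches to TGANTCA (the AP-1 site) or TATAAA (the TATA box).
ANXA1: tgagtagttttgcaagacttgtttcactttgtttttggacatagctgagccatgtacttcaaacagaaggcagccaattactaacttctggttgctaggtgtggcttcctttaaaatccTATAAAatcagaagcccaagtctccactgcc
ANXA2: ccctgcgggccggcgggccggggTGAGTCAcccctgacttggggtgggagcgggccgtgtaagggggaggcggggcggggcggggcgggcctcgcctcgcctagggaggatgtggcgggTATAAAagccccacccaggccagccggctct
S100A10: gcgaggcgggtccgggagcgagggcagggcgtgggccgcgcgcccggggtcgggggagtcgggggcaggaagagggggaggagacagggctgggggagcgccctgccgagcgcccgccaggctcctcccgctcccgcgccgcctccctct
In windows from 250 bases before to 50 bases after each start, searched on both strands, the ETS motif CCGGAA was found in 17.2% of all 35116 RefSeq windows, TGANTCA in 7.71% and the TEAD motif GGAATG in 14.03%. The 10 members had 14 such windows, of which 4 held CCGGAA, 1 held TGANTCA and 0 held GGAATG. The CCGGAA matches lay in windows of S100A6, ANXA4 and ANXA11, and the TGANTCA match was that of ANXA2. TATAAA, which was searched after these windows had been seen, was in 11.5% of all windows and in those of ANXA1, ANXA2 and 1 window of ANXA11. These matches are letters in a window and were not tested as binding sites.

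In the crowding experiment the library totals lay between 50359703 and 62410168 counts, and in the knockdown experiment between 52155822 and 56630652. The pluripotent markers were all listed in both tables, with summed levels of 2197 to 2274 FPKM in small and 2269 to 2327 in crowded libraries, and of 2034 to 2224 in Ctrl and 2574 to 2632 in ETV4 KD libraries. ETV4, the targeted gene, was at 90.8 and 95.1 FPKM in the Ctrl libraries and at 45.6 and 40.9 in the ETV4 KD libraries, a log2 fold change of -1.15 (SE 0.07, adjusted p = 1.60e-04). In the crowding table ETV4 had a log2 fold change of -0.49.

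After crowding, ANXA1, ANXA3, ANXA2, S100A10 and ANXA5 were called lower, ANXA11 and S100A11 were lower by less than the fold threshold, and ANXA4, ANXA6 and S100A6 had overlapping libraries. Thus 5 of the 10 members were called lower and 0 were called higher, beside 5.47% and 10.7% of the 17672 genes tested. The libraries of 7 members lay apart in the lower direction and those of 0 members in the higher direction, beside 29.0% and 41.2% of all genes. The median log2 fold change of the members was -0.49, beside 0.0032 for all genes tested. Because this contrast chose the members, these counts only describe them. In bulk samples such as these, fewer cells of a type and less RNA per cell cannot be told apart.

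ANXA1, gene 301, sits on the plus strand of chromosome 9 (75766781 to 75785309 in GRCh37) and encodes a protein known for resolving inflammation and for binding S100A11. It was at 10.3 and 10.2 FPKM in the small libraries and at 1.05 and 0.460 in the crowded libraries. The crowded libraries held 92 and 47 reads of it, against 827 and 989 in the small libraries. Both crowded libraries were far below both small libraries, and the crowded pair differed more from each other than the small pair did. The log2 fold change was -3.83 (SE 0.27), or 14.2-fold lower. It was -4.51 without crowded replicate 1 and -3.34 without crowded replicate 2. ANXA1 was first among the 689 called falls with libraries apart and a mean of at least 1 FPKM over all 4 libraries. It was ahead of CER1 (log2 fold change -3.53). The rank was taken only in the edgeR fit of all 4 libraries. With limma the log2 fold change of ANXA1 was -3.69 on log2(FPKM + 0.1) and -2.70 on log2(FPKM + 1).

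ANXA3, on chromosome 4 from 79472901 to 79531605 (plus strand), encodes an annexin first known as an inhibitor of phospholipase A2. Its level was 26.1 and 27.0 FPKM in the small libraries and 7.33 and 7.42 in the crowded libraries. The groups lay well apart and the replicates of each were close. The log2 fold change was -1.90 (SE 0.08), or 3.74-fold lower.

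ANXA2 and S100A10 encode the chains of the plasminogen-binding tetramer. ANXA2, on chromosome 15 from 60639333 to 60695082 (minus strand), was at 104 and 109 FPKM in the small libraries and at 45.3 and 41.7 in the crowded libraries. S100A10, on chromosome 1 from 151955391 to 151966335 (minus strand), was at 92.3 and 98.0 FPKM in the small libraries and at 50.8 and 43.9 in the crowded libraries. For both genes all crowded libraries were below all small libraries. The log2 fold changes were -1.35 for ANXA2 (SE 0.06) and -1.06 for S100A10 (SE 0.07). The level of S100A10 divided by that of ANXA2 was 0.891 and 0.902 in the small libraries and 1.12 and 1.05 in the crowded libraries. ANXA2 has a processed pseudogene, ANXA2P2, which could share reads with it and held 8 to 21 counts per library of this table. Its pseudogenes ANXA2P1 and ANXA2P3 were not listed. S100A11 has annotated pseudogenes too, among them S100A11P1, and these were not listed in either experiment.

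ANXA5, the phosphatidylserine-binding annexin used to stain dying cells, lies on chromosome 4 from 122589101 to 122618150 (minus strand). It was at 136 and 138 FPKM in the small libraries and at 94.3 and 94.1 in the crowded libraries. The difference was 1.51-fold, the smallest among the 5 members called lower. S100A11, on chromosome 1 from 152004982 to 152020383 (minus strand), was at 91.6 and 91.2 FPKM in the small libraries and at 79.9 and 79.1 in the crowded libraries. Its log2 fold change of -0.26 (SE 0.06) was below the fold threshold in size although the libraries did not overlap. Per ANXA1 the level of S100A11 was 8.92 and 8.94 in the small libraries and 76.4 and 172 in the crowded libraries.

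The other annexins differed less. ANXA11, which links lysosomes to RNA granules, was at 10.2 and 10.2 FPKM in the small libraries and at 8.14 and 8.72 in the crowded libraries, with a log2 fold change of -0.27 (SE 0.06). ANXA6, the annexin with a doubled core, was at 27.3 and 27.4 FPKM in the small libraries and at 26.9 and 28.6 in the crowded libraries. ANXA4, an annexin of epithelial cells, was at 4.09 and 4.93 FPKM in the small libraries and at 4.35 and 4.62 in the crowded libraries. The libraries of ANXA6 and ANXA4 overlapped, and the log2 fold changes were -0.03 and -0.05. S100A6, also called calcyclin, was at 2.87 and 2.38 FPKM in the small libraries and at 1.49 and 2.65 in the crowded libraries, on 41 to 83 reads per library, and here too the groups overlapped. ANXA11 lies on chromosome 10 from 81910645 to 81965328 (minus strand), ANXA6 on chromosome 5 from 150480267 to 150537376 (minus strand), ANXA4 on chromosome 2 from 69871557 to 70054244 (plus strand) and S100A6 on chromosome 1 from 153507075 to 153508720 (minus strand). The spans of ANXA2, ANXA4, S100A6, S100A11 and the targeted gene ETV4 overlap other genes. No source used here says if the counting used strand, which leaves the values of these genes less certain.

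**Figure D1:**
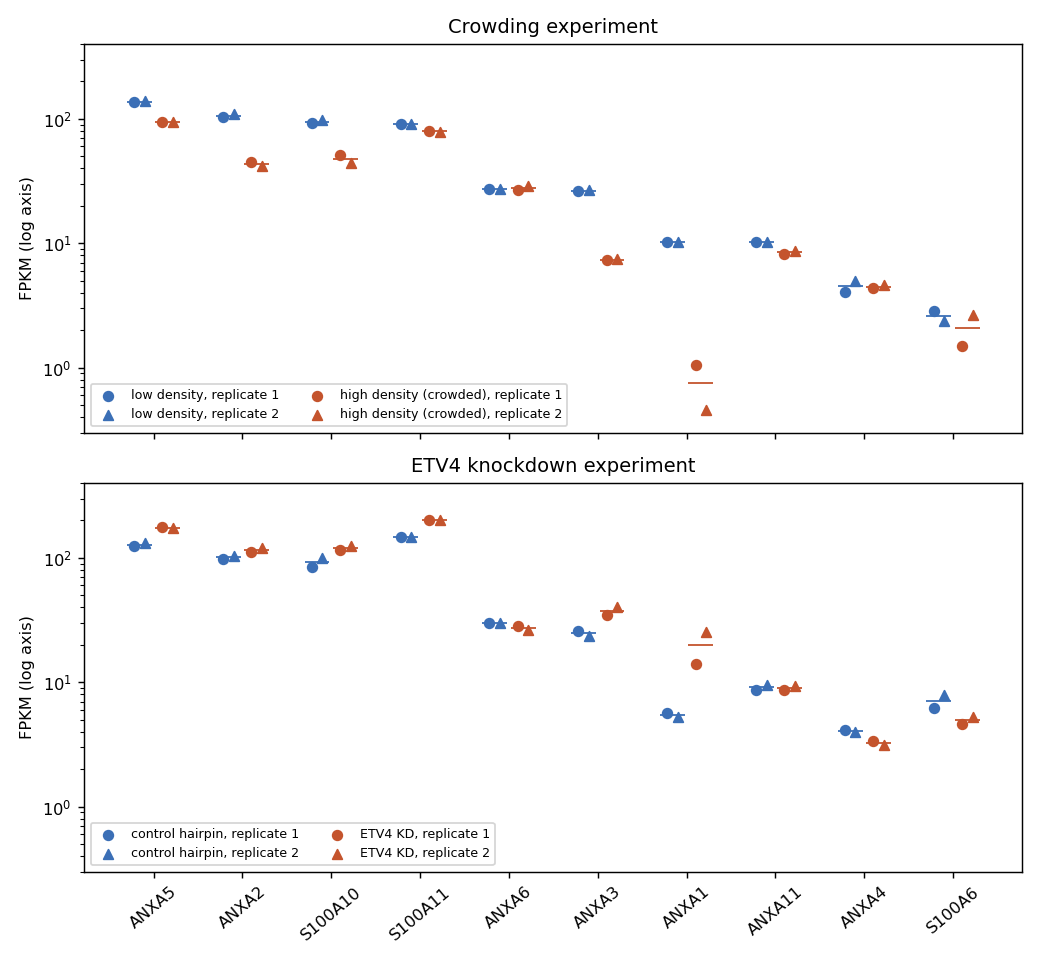
FPKM of each member (log axis) in the 4 libraries of the crowding experiment (top) and of the knockdown experiment (bottom). Circles and triangles are replicates 1 and 2, colours are the groups and lines are group means of 2 libraries. ANXA1 has the widest gap between groups in both panels, from a mean of 10.2 to 0.753 FPKM after crowding and from 5.45 to 19.8 after ETV4 KD.

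After knockdown of ETV4, ANXA1 and ANXA3 rose past both thresholds, and ANXA5, S100A11 and S100A10 rose by smaller folds with an adjusted p below 0.05. ANXA2, ANXA4, ANXA6, ANXA11 and S100A6 did not pass the test. Of the 10 members, 2 were called higher and 0 were called lower, beside 5.88% and 7.10% of the 17879 genes tested. At an adjusted p below 0.05 and any fold, 5 members were higher and 0 were lower, beside 10.6% and 10.9% of all genes. The libraries of 6 members lay apart in the higher direction and those of 3 in the lower direction, beside 31.8% and 31.5%. The median log2 fold change was 0.29, beside -0.0012 for all genes tested.

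ANXA1 was at 5.65 and 5.25 FPKM in the Ctrl libraries and at 14.1 and 25.5 in the ETV4 KD libraries. Both knockdown libraries were above both control libraries, and they also differed from each other by more than the controls did. Mean levels were 5.45 ± 0.279 FPKM in Ctrl and 19.8 ± 8.08 FPKM in ETV4 KD libraries (SD, n = 2 each). The log2 fold change was 1.87 (SE 0.27, adjusted p = 0.00463), a 3.66-fold rise. It was 1.35 without ETV4 KD replicate 2 and 2.26 without ETV4 KD replicate 1. With the replicate number as a block the log2 fold change was 1.81 and the call was lost (adjusted p = 0.152, edgeR), although nothing in the labels pairs these libraries. The spread between the knockdown libraries therefore sets how closely the size of this rise is known.

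ANXA3 was at 25.8 and 23.6 FPKM in the Ctrl libraries and at 34.5 and 40.1 in the ETV4 KD libraries. The groups did not overlap, and the log2 fold change was 0.60 (SE 0.11, adjusted p = 0.00909), a 1.51-fold rise. Without ETV4 KD replicate 2 it was 0.46, below the fold threshold.

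ANXA5 was at 125 and 131 FPKM in the Ctrl libraries and at 176 and 173 in the ETV4 KD libraries. S100A11 was at 146 and 146 FPKM in the Ctrl libraries and at 202 and 199.985 in the ETV4 KD libraries. These abundant members rose by similar amounts, with replicates close together in each group. The log2 fold change was 0.45 for ANXA5 (SE 0.07, adjusted p = 0.00437) and 0.46 for S100A11 (SE 0.07, adjusted p = 0.00503), each below the fold threshold. Per ANXA1 the level of S100A11 was 25.9 and 27.9 in the Ctrl libraries and 14.3 and 7.84 in the ETV4 KD libraries.

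S100A10 was at 84.9 and 100.2 FPKM in the Ctrl libraries and at 116 and 124 in the ETV4 KD libraries. Its log2 fold change was 0.38 (SE 0.10, adjusted p = 0.0283). Leaving out Ctrl replicate 1, the lower of the controls, moved it to 0.28 (adjusted p = 0.271, edgeR), and leaving out Ctrl replicate 2 moved it to 0.50 (adjusted p = 0.0150, edgeR), so the result rests on which control is used. ANXA2, its partner, was at 98.2 and 103 FPKM in the Ctrl libraries and at 111 and 119 in the ETV4 KD libraries. The ANXA2 libraries did not overlap, but the log2 fold change of 0.20 (SE 0.08, adjusted p = 0.109) did not pass the test. The level of S100A10 divided by that of ANXA2 was 0.865 and 0.969 in the Ctrl libraries and 1.05 and 1.04 in the ETV4 KD libraries.

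The 4 members with a log2 fold change below 0 did not pass the test. S100A6 was at 6.18 and 7.90 FPKM in the Ctrl libraries and at 4.604 and 5.26 in the ETV4 KD libraries, with a log2 fold change of -0.50 (SE 0.22, adjusted p = 0.137). Its libraries lay apart, and limma on log2(FPKM + 0.5) gave an adjusted p of 0.0412. ANXA4 was at 4.10 and 4.00 FPKM in the Ctrl libraries and at 3.37 and 3.12 in the ETV4 KD libraries (log2 fold change -0.27, adjusted p = 0.154). ANXA6 was at 29.8 and 30.03 FPKM in the Ctrl libraries and at 28.3 and 26.3 in the ETV4 KD libraries (log2 fold change -0.13, adjusted p = 0.239). ANXA11 was at 8.65 and 9.57 FPKM in the Ctrl libraries and at 8.62 and 9.36 in the ETV4 KD libraries, the only member with overlapping groups (log2 fold change -0.01, adjusted p = 0.929).

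**Figure D2:**
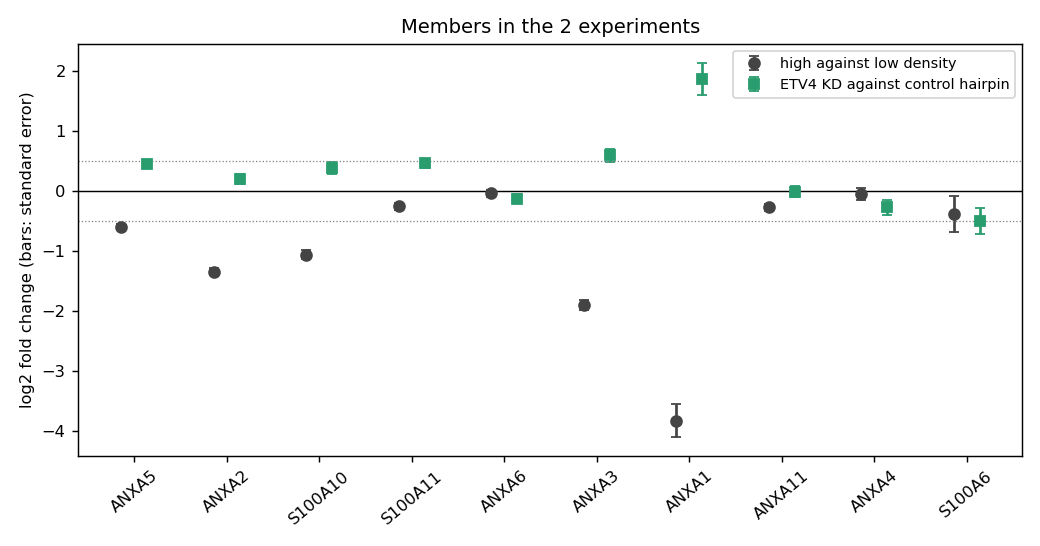
Log2 fold change of each member with its SE, after crowding (grey circles) and after ETV4 KD (green squares), from edgeR on 2 libraries against 2. Dotted lines mark 0.5 and -0.5. ANXA1 lies at -3.83 and 1.87, and ANXA3 at -1.90 and 0.60.

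**Figure D3:**
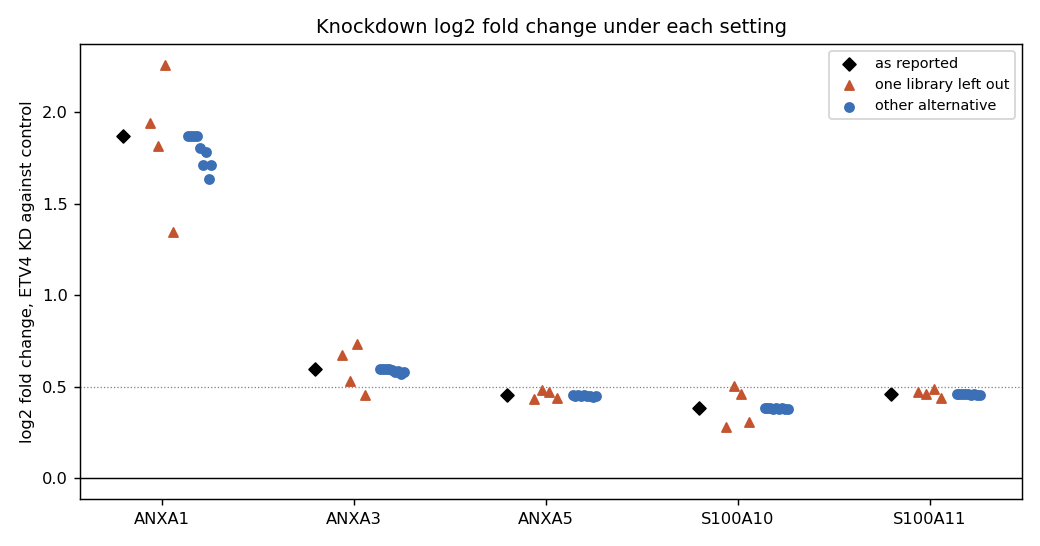
Log2 fold change after ETV4 KD of the 5 members with an adjusted p below 0.05, as reported (diamonds), with 1 library left out (triangles) and under the other alternatives that refit the data (circles). ANXA1 stayed between 1.35 and 2.26 with a library left out, ANXA3 crossed the dotted line at 0.5, and ANXA5 and S100A11 stayed below it.

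The 5 members called lower after crowding all had positive log2 fold changes after ETV4 KD: 1.87 for ANXA1, 0.60 for ANXA3, 0.45 for ANXA5, 0.38 for S100A10 and 0.20 for ANXA2. Among the 957 genes called lower after crowding and tested in the knockdown table, 60.3% had a positive log2 fold change there, beside 50.2% of the 17206 genes tested in both. Of the same 957 genes, 16.7% were called higher after ETV4 KD and 10.6% were called lower, beside 5.92% and 7.21% of the 17206 genes. The experiments share no library, and the difference between the crowding and knockdown responses was not tested.

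In sums, the 7 annexins held 317 and 327 FPKM in the small libraries and 187 and 186 in the crowded libraries. The 3 S100 genes held 187 and 192 FPKM in the small libraries and 132 and 126 in the crowded libraries. After ETV4 KD the annexin sum was 377 and 396 FPKM against 297 and 307 in Ctrl libraries, and the S100 sum was 323 and 329 against 237 and 254. In each sum the groups did not overlap. A sum follows its most abundant genes, and the members did not all move with it. After ETV4 KD 6 members had log2 fold changes above 0, while 4 (ANXA4, ANXA6, ANXA11 and S100A6) had values below 0.

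The order of levels was led by the same 4 genes in every group: ANXA5, ANXA2, S100A10 and S100A11. In the small libraries means ran from ANXA5 (137 FPKM) over ANXA2 (106), S100A10 (95.1), S100A11 (91.4), ANXA6 (27.3), ANXA3 (26.5), ANXA1 (10.2), ANXA11 (10.2) and ANXA4 (4.51) to S100A6 (2.62), and only the neighbours ANXA1 and ANXA11 overlapped. ANXA1 was the seventh of the 10 at low density and the last at high density, where it was at 0.753 FPKM. In the crowded libraries ANXA2 and S100A10, at means of 43.5 and 47.3 FPKM, overlapped as neighbours. S100A11 was the highest member in both knockdown groups, and ANXA2 and S100A10 overlapped in both. ANXA1 was ninth in the Ctrl libraries and seventh in the ETV4 KD libraries, where it lay above ANXA11 (8.99 FPKM).

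The genes most like ANXA1 were found by the distance between log2 CPM values over the 8 libraries, each centred within its table, among 13290 candidates. Among the nearest were the actin cross-linker FLNC (distance 2.01), the serotonin receptor HTR1A (2.06), the tetraspanin relative TM4SF18 (2.19) and the secreted matrix protein SPP1 (2.21). FLNC had log2 fold changes of -2.03 after crowding and 1.43 after ETV4 KD, and those of TM4SF18 were -1.74 and 1.85. Among the members ANXA3 was nearest, at rank 16 (distance 2.49), followed by ANXA2 at rank 78 and S100A10 at rank 103. The libraries that define this distance include those of the contrast that chose ANXA1, so it describes only.

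Lists of 6 other annexins, 17 other S100 genes and 19 binding partners hold 42 genes around the members, of which 21 were tested after crowding and 23 after ETV4 KD. After crowding 2 of the 21 were called higher and 2 lower, beside 10.7% and 5.47% of all genes tested. Their median log2 fold change was -0.09, beside 0.0032 for all genes. After ETV4 KD 1 of the 23 was called higher and 4 lower, beside 5.88% and 7.10% of all genes tested. Here the median was -0.05, beside -0.0012 for all genes. By list, the knockdown calls were 0 of 2 other annexins tested, 1 lower of 6 other S100 genes, and 1 higher and 3 lower of 15 binding partners.

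MYOF, a ferlin of membrane repair and fusion, was at 1.59 and 1.52 FPKM in the small libraries and at 0.382 and 0.400 in the crowded libraries, a log2 fold change of -2.03. After ETV4 KD it rose from 1.35 and 1.28 FPKM to 2.10045 and 2.15 (log2 fold change 0.69, adjusted p = 0.00676). MYOF was thus lower after crowding and higher after ETV4 KD, as ANXA1 and ANXA3 were. DYSF, the related ferlin of muscle membrane repair, fell after ETV4 KD from 2.41 and 2.43 FPKM to 1.86 and 1.50 (log2 fold change -0.52, adjusted p = 0.0209), and had a log2 fold change of -0.14 after crowding.

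PLAT, the tissue plasminogen activator that binds the ANXA2 tetramer, was at 2.62 and 2.35 FPKM in the small libraries and at 0.903 and 0.704 in the crowded libraries, a log2 fold change of -1.68. After ETV4 KD it fell from 1.59 and 1.50 FPKM to 0.960 and 0.930 (log2 fold change -0.70, adjusted p = 0.0235). PLAT was therefore called lower in both experiments. S100A10 and ANXA2 were called lower after crowding, and neither was called after ETV4 KD. There the log2 fold change of S100A10 was 0.38, below the fold threshold, and that of ANXA2 was 0.20 and did not pass the test. The plasminogen receptor PLGRKT had log2 fold changes of 0.16 after crowding and -0.05 after ETV4 KD.

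S100A4, a partner of non-muscle myosin linked to cell motility, fell after ETV4 KD from 17.4 and 20.02 FPKM to 9.36 and 9.87 (log2 fold change -0.96, adjusted p = 0.00454), and had a log2 fold change of -0.10 after crowding. It was the S100 gene with the largest change after ETV4 KD among those tested here, and its span overlaps S100A3. S100A13 and S100A16 had log2 fold changes of 0.13 and -0.28 after ETV4 KD (adjusted p = 0.130 for S100A16) and of 0.06 and 0.02 after crowding. HLTF, a chromatin remodeller that binds the ANXA2 tetramer, was at 12.1 and 12.7 FPKM in the small libraries and at 24.7 and 31.6 in the crowded libraries, a log2 fold change of 1.09. After ETV4 KD it fell from 26.5 and 24.0 FPKM to 17.0 and 11.1 (log2 fold change -0.80, adjusted p = 0.00808). HLTF was thus higher after crowding and lower after ETV4 KD, and its span overlaps GYG1. AGER, the receptor of several S100 proteins, was at 1.28 and 1.43 FPKM in the small libraries and at 2.86 and 3.12 in the crowded libraries, a log2 fold change of 1.07, and after ETV4 KD its log2 fold change was 0.24 (adjusted p = 0.376). The remaining genes named by level, ANXA7, SRI, PDCD6, PDCD6IP and CACYBP, had log2 fold changes of -0.21 to 0.23 after crowding and of -0.05 to 0.10 after ETV4 KD.

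**Figure D4:**
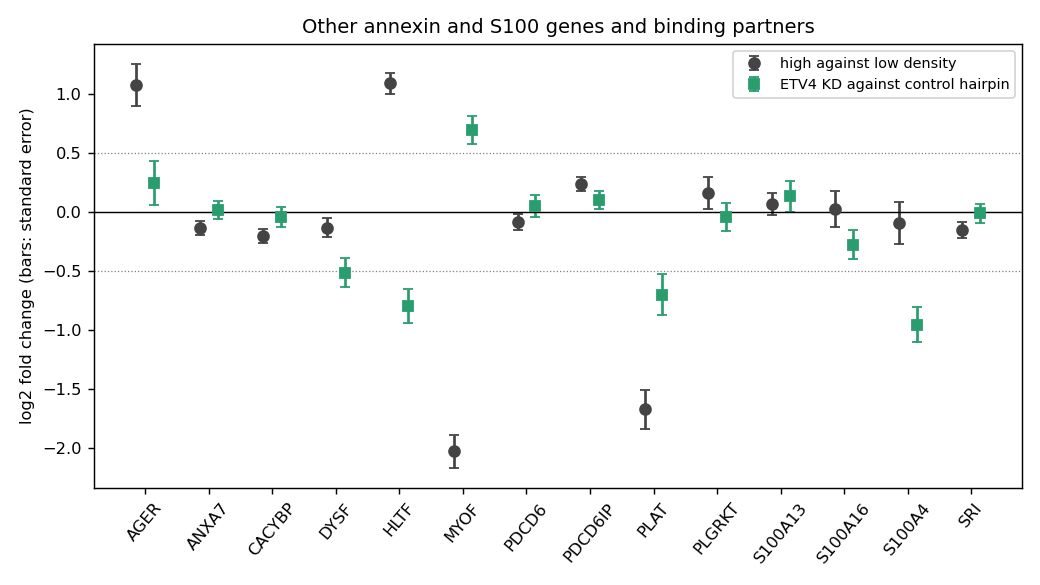
Log2 fold change with its SE of the 14 named other annexins, S100 genes and binding partners, after crowding (grey circles) and after ETV4 KD (green squares). Dotted lines mark 0.5 and -0.5. MYOF lies at -2.03 and 0.69, HLTF at 1.09 and -0.80, and PLAT below -0.5 in both.

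Markers of other cell types moved with the groups as well. Of 9 mesendoderm markers, 6 were listed in the crowding experiment, with summed levels of 4.46 to 4.78 FPKM in small and 0.969 to 1.20 in crowded libraries, and EOMES, MESP1 and SOX17 were not listed. For the 5 of 9 mesenchymal markers listed, the sums were 115 to 117 FPKM and 83.7 to 84.3, without COL3A1, LUM, DCN and TWIST1, and for the 4 of 10 amnion and trophoblast markers they were 4.73 to 5.23 and 7.46 to 7.51. The 7 of 8 neural markers listed summed to 119 to 128 FPKM and 80.5 to 100.3, but of the 6 tested 4 had a log2 fold change above 0 (median 0.43), with 2 called higher and 2 called lower. Of the 4 mesendoderm markers tested after crowding, 2 were called lower and 0 higher, and 1 had a log2 fold change above 0. Of 5 mesenchymal markers, 2 were called lower and 0 higher, and 1 was above 0. Of 4 amnion and trophoblast markers, 1 was called higher and 0 lower. After ETV4 KD the 6 of 8 neural markers listed went from 52.5 to 61.5 FPKM in Ctrl libraries to 106 to 128, the 7 of 9 mesenchymal markers from 153 to 156 to 117 to 126, the 5 of 9 mesendoderm markers from 2.24 to 3.33 to 1.34 to 2.04, and the 5 of 10 amnion and trophoblast markers from 8.36 to 8.42 to 6.10 to 6.77. By gene, 2 of the 5 neural markers tested after ETV4 KD were called higher and 1 lower, and PAX6 and NEUROG2 were not listed. Of 6 mesenchymal markers tested 1 was called higher and 1 lower, as were 1 and 1 of 4 amnion and trophoblast markers. Only 2 mesendoderm markers were tested, with 0 called higher and 1 lower. Over all genes 10.7% were called higher and 5.47% lower after crowding, and 5.88% were called higher and 7.10% lower after ETV4 KD. The part of these markers in the levels of the annexins and S100 genes was not tested.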

How the data were processed

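The authors deposited 1 table per experiment with read counts per gene, not normalized, and FPKM per gene, scaled to transcript length and to the mapped fragments. Per the submitters' processing notes, paired reads were handled with Trimmomatic, HISAT2 2.1.0 and StringTie 2.1.3b on GRCh37. Each table lists genes with at least 1 read in each of its 4 libraries. Groups were taken from the sample labels. The authors' fold changes and p-values, and 16 further columns of per-sample values, were not used.

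Counts were tested within each table by the robust quasi-likelihood test of edgeR 4.0.16 (R 4.3.3), after filterByExpr and TMM, and p-values were adjusted after Benjamini and Hochberg over all 17672 or 17879 genes tested. The SE of a log2 fold change is its size over the root of the F statistic. In simulated counts, where 200 genes had a true log2 difference of 1, the test called 68% (crowding) and 77.5% (ETV4 KD) of them, with 6.85% and 9.88% of calls false. Alternatives were DESeq2 1.42.0, limma 3.58.1 on log2(FPKM + pseudocount), other filters and thresholds, a replicate block and each library left out.

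The members and gene lists were chosen with earlier results of these data known. Genes named are the members, ETV4, list genes called in either table or with a mean of at least 10 FPKM in a group, and the 5 genes nearest to ANXA1 by Euclidean distance (prior count 2, mean FPKM of at least 1 in small or Ctrl). A result that this rule selects is not reported here. CER1 was named after its values were seen. Positions are those of GENCODE v44 lifted to GRCh37. Promoter windows are from RefSeq. Proteins were not compared. With 50359703 to 62410168 counts per library, counting error is small for most members and larger for S100A6 and for ANXA1 in crowded libraries.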

Additional observations from a re-analysis of the deposited data

How the results depend on the processing

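The crowding counts of members and of surrounding genes stayed within 1.5 times of the values given under every alternative run. After ETV4 KD, 2 members were called higher, and 1 was with the replicate number as a block, with a log2 fold change over 1 required, or without ETV4 KD replicate 2, in a range of 1 to 3 (3 without Ctrl replicate 2) over the fits that left out a library. The third call was S100A10, at a log2 fold change of 0.50. Of the surrounding genes, the 1 called higher became 0 and the 4 called lower became 2 under limma on log2(FPKM + 1), 2 were called lower under limma on log2(FPKM + 0.5) without an FPKM minimum, and 0 were called in either direction with a log2 fold change over 1 required. The lower calls numbered 2 without Ctrl replicate 1 and 2 without Ctrl replicate 2, in a range of 2 to 5 (5 without ETV4 KD replicate 1). The log2 fold change of ANXA11 after ETV4 KD changed sign, to 0.05 without Ctrl replicate 2 and 0.0691 without ETV4 KD replicate 1, in a range of -0.10 to 0.0691. The causes were not tested. Under the block the members with an adjusted p below 0.05 still numbered 5, with ANXA2 (adjusted p = 0.00411) in and ANXA1 out. Replicate numbers do not pair the libraries in the labels, and deviations of same-numbered libraries correlated at -0.041 for crowding and 0.086 for ETV4 KD. In fits with a library left out, the lone library of a group is assumed to vary like the others, and their p-values rest on 1 pair of replicates. After crowding, S100A6 ranged from -0.85 to -0.04, ANXA4 changed sign to 0.09 without small replicate 2 and 0.0012 without crowded replicate 1, and ANXA6 changed sign to 0.02 under the 4 limma settings and 0.0036 without crowded replicate 1.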
